A study of Drosophila melanogaster with 9 samples.

Results

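A set of 9 chaperone genes was followed through 9 iCLIP2 libraries of the fly protein Mei-P26: Hsp83, Hsc70-4, Hsc70-5, Hsp60A, Hsp26, Hsp27, Hsp23, DnaJ-1 and Droj2. They were listed by gene symbol, with earlier results of these data known, and they are 9 of the 6780 genes that held at least 1 cDNA. iCLIP2 crosslinks RNA to protein with UV light, precipitates the protein and sequences the cDNAs that stop at the crosslinked nucleotide, so that each distinct cDNA counts as 1 crosslink event. Mei-P26 is a TRIM-NHL protein of the germline, and its NHL domain binds RNA. Schneider's Drosophila line SL2, a cell line from fly embryos that the growth text calls S2R+, was used for all libraries.

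Of the libraries, 3 came from cells transfected with plasmid pAC5.1 encoding FLAG-tagged full-length Mei-P26, and 3 from cells given the FLAG-tagged NHL domain alone, amino acids 908 to 1206. The other 3 came from non-transfected cells. The label of every sample gives the anti-FLAG antibody M2, while the protocol also mentions a control serum without saying for which samples. The libraries were made after 48 h with 15 µg of DNA per dish for the transfected cells and with 10 U of RNase in all lysates. Both baits were driven by the Actin 5C promoter in cells that are not germline. The shared treatment text names substituted proteins as the control, which differs from the label of each control sample, and the UV dose also differs between the methods and the labels. The methods call the replicates independent biological replicates.

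The libraries differed widely in depth. Full-length libraries 1, 2 and 3 held 14685, 1878 and 21831 cDNAs, NHL libraries 1, 2 and 3 held 4321, 7947 and 40032, and the controls held 1252, 1160 and 849. Of 9 hemocyte-like marker genes, the type of cell S2 lines resemble, 8 held cDNAs, with Hml at 0. None of 5 germline markers held any, 3 of 4 neuron markers held 10 cDNAs in all, and 1 of 4 muscle markers held 1. The files measure crosslinked cDNAs and no RNA level, so that more RNA of a gene, more cells expressing it and more protein on each RNA cannot be told apart.

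Chaperones help other proteins to fold, and heat induces many of their genes. Hsp83 is the fly Hsp90, a cytosolic ATPase that matures kinases and hormone receptors. Hsc70-4 is the constitutive cytosolic Hsp70, and Hsc70-5 is the Hsp70 of the mitochondrial matrix. Hsp60A is the mitochondrial chaperonin. Hsp26, Hsp27 and Hsp23 are small heat shock proteins, which hold unfolded clients without ATP. DnaJ-1 and Droj2 are J-domain proteins that stimulate the ATPase of Hsp70. In cells that are not heated, the constitutive Hsp70 and Hsp90 genes are among the abundant messengers.

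A reporter of the study carried a piece of the Hsp83 3′ UTR, and the gene-specific ends of the pair of primers that bracketed it are shown because this is the gene with the most crosslinks here. The study names them forward and reverse, and both are written 5′ to 3′ in lower case with no part marked.
Hsp83 forward primer: gcgttataagcgacagacatac
Hsp83 reverse primer: atcatcgatcgggtcatc
The gene lies on chromosome 3L. The primers were not placed on the genome, so no crosslink is described here as inside or outside the reporter. The study reported Mei-P26-dependent activation of this reporter, much weakened by substitutions in the NHL domain that abolish RNA binding. It had picked Hsp83 as a gene with overlapping peaks of both baits but no Mei-P26 motif or U-rich sequence near them.

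The 9 genes together held 488 cDNAs. Hsp83 accounted for 186 of them and Hsc70-4 for 162, which together made 71.3% (95% interval 67.1 to 75.3, Clopper-Pearson, counting error only). Hsp60A held 49, Hsc70-5 held 33, DnaJ-1 held 25 and Droj2 held 19. The small heat shock genes were sparse, with 7 cDNAs on Hsp23, 5 on Hsp26 and 2 on Hsp27. Among all genes, ranked by cDNAs, Hsp83 was number 56, Hsc70-4 number 78, Hsp60A number 321 and Hsp27 number 4562. Per kilobase of gene, introns included, the bait libraries gave 43.3 cDNAs on Hsp83, 39.7 on Hsc70-4, 12.5 on Hsp60A, 11.6 on DnaJ-1, 8.62 on Hsc70-5, 7.92 on Hsp23, 5.98 on Droj2, 4.95 on Hsp26 and 1.23 on Hsp27. The deepest library of each bait, replicate 3, held 364 of the 488 cDNAs (74.6%).

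The first comparison asked whether the chaperone messengers made up a larger share of the cDNAs of either bait than of the control. No such excess of share was detectable for any of them at this depth. In summed counts the 9 genes held 220 of 38394 full-length cDNAs, 250 of 52300 NHL cDNAs and 18 of 3261 control cDNAs. Whether the baits drew more RNA in total was not tested. Rates are given as cDNAs per 10000 cDNAs of the library, which divides out a difference in total cDNAs. The 9 genes summed to 38.1, 47.9 and 71.0 in the full-length libraries, to 13.9, 44.0 and 52.2 in the NHL libraries, and to 71.9, 60.3 and 23.6 in the controls. The 3 groups overlapped, with means of 52.4 ± 16.9, 36.7 ± 20.2 and 51.9 ± 25.2 (SD, n = 3 libraries each). The two-sided exact permutation p against the control was 1 for the full-length libraries and 0.5 for the NHL libraries. With 3 libraries against 3 it cannot fall below 0.1.

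Hsp83 was counted 22, 4 and 48 times in the full-length libraries, 3, 16 and 84 times in the NHL libraries, and 5, 4 and 0 times in the controls. As rates these are 15.0, 21.3 and 22.0 with full-length Mei-P26, 6.94, 20.1 and 21.0 with the NHL domain, and 39.9, 34.5 and 0 in the control. Control libraries 1 and 2 lay above every bait library and control library 3 below all of them. The means were 19.4 ± 3.86, 16.02 ± 7.87 and 24.8 ± 21.7 per 10000 (SD, n = 3). The exact permutation p against the control was 0.8 and 0.6 for the 2 baits, and it was 0.5 between them.

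Hsc70-4 was counted 19, 4 and 52 times with full-length Mei-P26, 3, 10 and 68 times with the NHL domain, and 3, 2 and 1 times in the control. Its mean rates were 19.4 ± 5.70, 12.2 ± 5.03 and 17.7 ± 6.10 per 10000 (SD, n = 3). All 3 ranges overlapped. The exact permutation p was 0.8 for full-length against control, 0.4 for the NHL domain against control and 0.2 between the baits. In each group the range of its library rates overlapped that of Hsp83, the neighbour above it in the order.

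The mitochondrial pair was lower. Hsc70-5 was counted 2, 0 and 13 times with full-length Mei-P26, 0, 1 and 15 times with the NHL domain, and 1, 1 and 0 times in the control. Hsp60A was counted 2, 0 and 17 times, 0, 2 and 27 times, and 0, 0 and 1 times in the same order. Most bait cDNAs of both genes thus came from the third replicates. The mean rates of Hsc70-5 were 2.44 ± 3.12, 1.67 ± 1.91 and 5.54 ± 4.80 per 10000, and those of Hsp60A 3.05 ± 4.16, 3.09 ± 3.41 and 3.93 ± 6.80 (SD, n = 3). Each SD was larger than its mean except that of Hsc70-5 in the control. The exact permutation p for bait against control was 0.4 for Hsc70-5 and 1 for Hsp60A, with either bait.

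The J-domain genes and the small heat shock genes had bait cDNAs and none in the control. DnaJ-1 was counted 5, 0 and 12 times with full-length Mei-P26 and 0, 1 and 7 times with the NHL domain. Droj2 was counted 2, 0 and 9 times and 0, 3 and 5 times. Hsp23 was counted 4, 0 and 2 times and 0, 0 and 1 times, Hsp26 0, 1 and 1 times and 0, 2 and 1 times, and Hsp27 once with each bait. A control count of 0 says little here, since 3 counts over the 3 control libraries would be a rate of 9.20 per 10000, above the highest mean rate of these 5 genes, 2.97 for DnaJ-1 with full-length Mei-P26. No fold is given for them, and a difference from the control was not detectable at this depth.

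**Figure D1:**
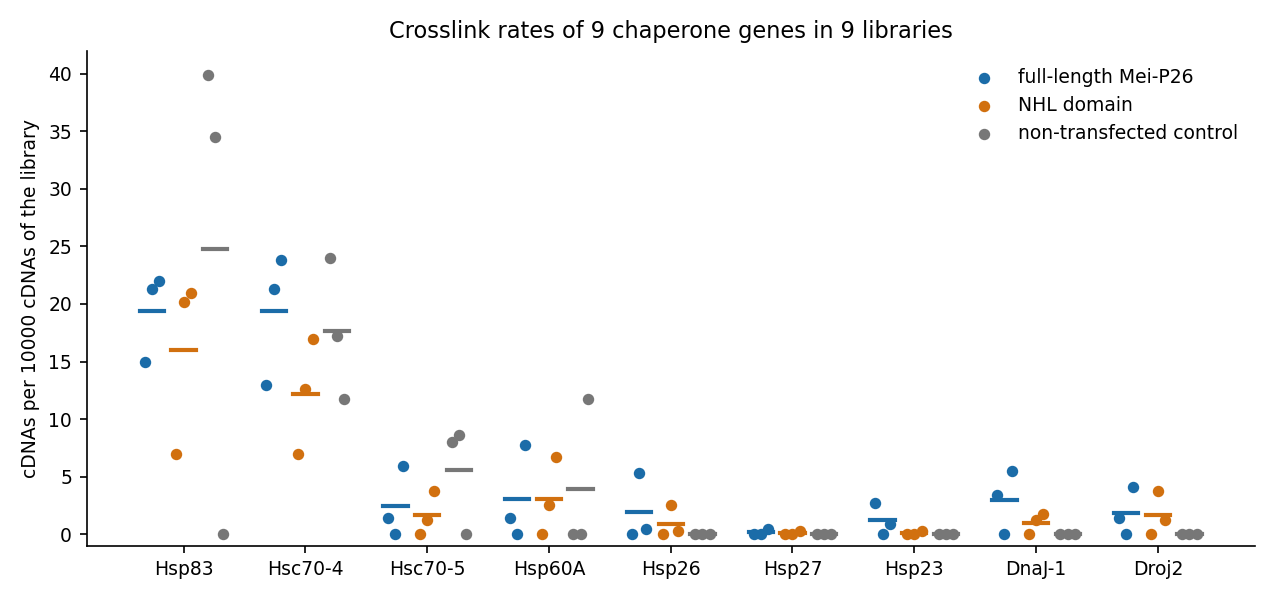
cDNAs per 10000 cDNAs of the library (vertical axis, linear) for each chaperone gene, with 1 point for each of the 3 libraries of full-length Mei-P26, the NHL domain and the non-transfected control, replicates in order from left to right, and a bar at the group mean. The means of Hsp83 and Hsc70-4 stand above those of the other genes in all groups, and the 3 groups overlap for every gene. In control library 3 Hsp83 was at 0, while Hsp60A and Hsc70-4 were both at 11.8.

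These overlaps were read against all genes. Of the 1869 genes that reached 10 cDNAs in the 9 libraries together, 6 were chaperones of the set, and Hsp26, Hsp27 and Hsp23 were below that count. None of the 6 had all full-length libraries above all controls, against 11.9% of the 1869 genes, or all NHL libraries above all controls, against 14.4%. None had all full-length libraries above all NHL libraries (6.37% of genes) or below them (7.38%). Full-length below control (1.93% of genes) and NHL below control (1.55%) held none either.

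In the edgeR quasi-likelihood test, 73 genes passed the filter on low counts, and Hsp83 was the only chaperone of the set among them. Its log2 fold change was 0.35 ± 0.71 (SE) for full-length against control, with an adjusted p of 0.852. For the NHL domain against control it was -0.67 ± 0.73, adjusted p 0.63, and for full-length against the NHL domain 1.02 ± 0.53, adjusted p 0.117. The test called 6.85% of the 73 genes in the first comparison, 0% in the second, where 12 genes had an unadjusted p under 0.05 and DESeq2 also called 0, and 38.4% in the third. Scaling by total cDNAs instead of TMM moved the median of the 73 genes by more than 0.1, from 0.07 to -0.73 for full-length against control and from -0.14 to -1.02 between the baits. Relative to that median Hsp83 stood at 0.28 and 0.23 in the first comparison, and at 1.16 and 1.16 between the baits, under TMM and total cDNAs. With all 1869 genes in the fit, none of the 6 chaperones was called in any comparison. That fit called only 3 of the 1869 genes for full-length against control, 26 for the NHL domain against control and 38 between the baits. In simulated data it called 4.85% to 6.36% of the genes changed 4-fold, so the lack of a call says little. The log2 fold changes of the 6 between the baits ran from -0.22 ± 0.76 for Hsp60A to 1.24 ± 0.89 for DnaJ-1.

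Over the 9 libraries the genes whose TMM-normalized log2 CPM values were most like those of Hsp83, among the other 72 in the test, were RpL39 (Pearson r = 0.952, Spearman rho = 0.717), RpS30 (r = 0.932, rho = 0.817) and Vha16-1 (r = 0.912, rho = 0.9). RpL39 and RpS30 encode ribosomal proteins and Vha16-1 a subunit of the vacuolar proton pump. Without NHL library 1 and control library 3, the libraries farthest from the median of Hsp83, r was 0.439, 0.641 and 0.822. The likeness of RpL39 thus rested on those libraries. All points share the libraries' depth, and r is given as a description.

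The crosslinks gathered toward the 3′ ends of most of these genes. On 5 of the 6 chaperone genes with at least 10 cDNAs, between 64.5% and 73.7% of the bait cDNAs lay in the last 20% of the gene, counted from the annotated 5′ to 3′ ends. DnaJ-1 was lower, at 48%. The median over 1469 protein-coding genes with at least 10 bait cDNAs was 63.6%, so that by this measure the chaperones, with a median of 71.0%, were near the others. In the last 150 nt, a window chosen after the positions were seen, the 6 genes held 28% to 57.7% of their bait cDNAs, with a median of 47.1%. The same median over the 1469 genes was 21.1%, and all 6 were above it. A window of fixed length covers a larger part of a shorter gene. The 6 genes are 2161 to 4091 nt long with introns, and the part of gene length in this contrast was not tested. Hsc70-4 had the highest share, 57.7%, exceeded by 14.7% of those genes, and Hsp60A followed with 54.2%, exceeded by 17.97%. DnaJ-1, at 28%, was exceeded by 42.1%.

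The 5′ part held few crosslinks. Hsp83 had 5.08% of its bait cDNAs in the first 20% of the gene and Hsc70-4 4.49%, and the median of the 1469 genes was 6.67%. DnaJ-1 was again apart with 20%, which is 5 of its 25 cDNAs, all of them with full-length Mei-P26.

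**Figure D2:**
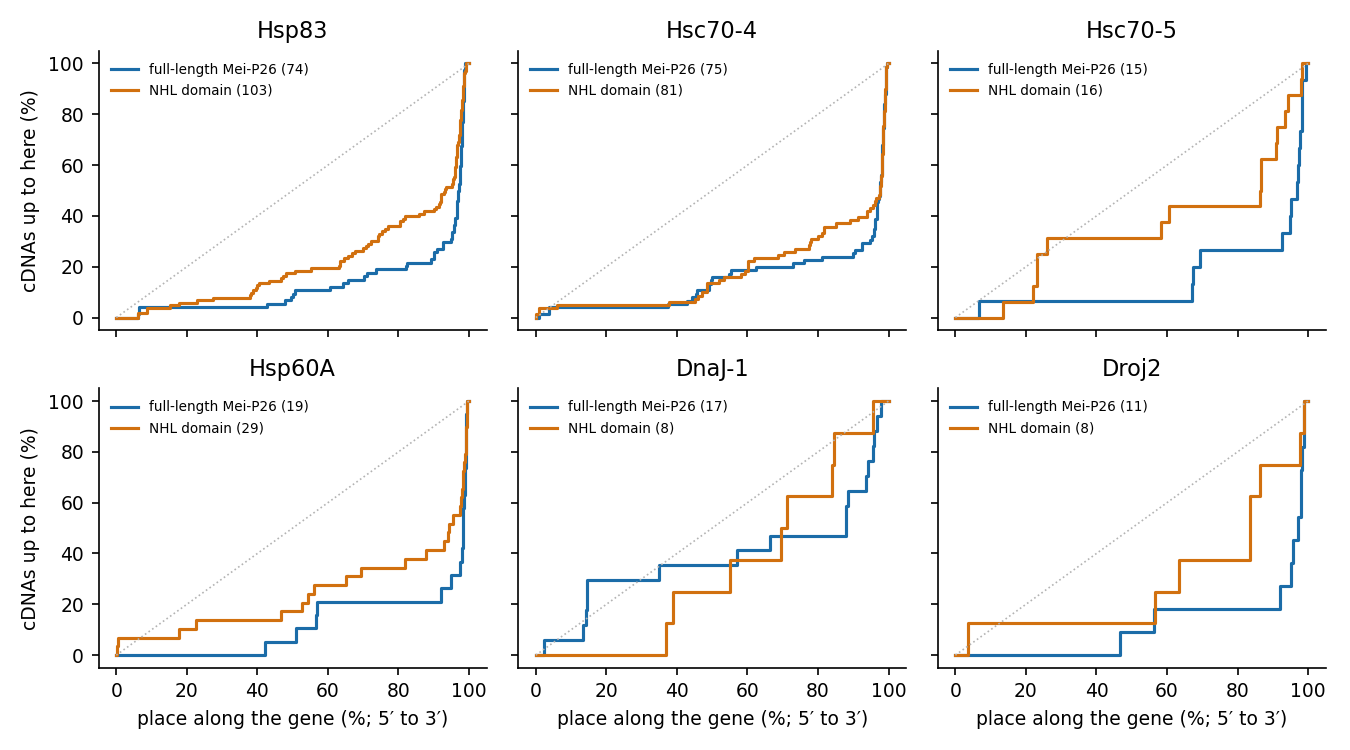
Cumulative share of cDNAs (vertical axis, %) from the annotated 5′ to the annotated 3′ end (horizontal axis, % of gene length) for 6 chaperone genes, with the summed libraries of each bait as a line of its own and the number of cDNAs in brackets. The dotted diagonal is an even spread. The lines of Hsp83 and Hsc70-4 rise most steeply in the last few percent of the gene, and those of DnaJ-1 lie nearer the diagonal. On Hsp83 and Hsc70-4 the last 20% held 81.1% and 77.3% of cDNAs with full-length Mei-P26, and 64.1% and 67.9% with the NHL domain.

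On Hsp83 the clusters called by the authors lay close together, though several of them, as in NHL library 3, were apart from each other. All 3 full-length and 4 NHL clusters lay at 3L:3196906-3196999 on the plus strand, 94 nt or 2.30% of the gene, 60 to 153 nt before its annotated 3′ end. The stretch was drawn from these clusters, so its content is a description. It held 10 of 22, 2 of 4 and 30 of 48 Hsp83 cDNAs in the full-length libraries and 0 of 3, 5 of 16 and 32 of 84 in the NHL libraries. Summed, that is 42 of 74 cDNAs with full-length Mei-P26 (56.8%, 95% interval 44.7 to 68.2) and 37 of 103 with the NHL domain (35.9%, 26.7 to 46.0). The control, which had no cluster, had 4 of 9 Hsp83 cDNAs there (44.4%, 13.7 to 78.8). As a rate the stretch held 6.81, 10.6 and 13.7 cDNAs per 10000 in the full-length libraries, 0, 6.29 and 7.99 in the NHL libraries and 23.96, 8.62 and 0 in the control. The control values spanned those of both baits.

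The highest nucleotide of Hsp83 was 3L:3196996, 63 nt before the end, with 1 cDNA in full-length library 2, 5 in full-length library 3 and 1 in NHL library 3. The 18 full-length and 14 NHL peak positions of Hsp83 shared 4 nucleotides, and every one lay within 20 nt of a peak of the other bait. With so many peaks close together such nearness is largely given in advance, and it is a description only. At a false discovery rate below 0.01, 3 of 18 peaks were left in full-length library 3 and 3 of 12 in NHL library 3. Most positions were thin, with 77.7% of the 139 crosslinked nucleotides of the gene seen by a single cDNA.

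On Hsc70-4 the bait clusters lay still closer to the end. The 2 full-length and 2 NHL clusters spanned 3R:15246540-15246582 on the plus strand, 43 nt or 1.09% of the gene, 32 to 74 nt before its annotated 3′ end. The stretch held 8 of 19, 1 of 4 and 20 of 52 cDNAs in the full-length libraries and 2 of 3, 5 of 10 and 25 of 68 in the NHL libraries. The summed shares, 38.7% (27.6 to 50.6) with full-length Mei-P26 and 39.5% (28.8 to 51.0) with the NHL domain, overlapped widely. The control had 1 of 6 cDNAs there. The nucleotide 3R:15246580, 34 nt before the end, held 8 cDNAs, which were 1 in full-length library 1, 3 in full-length library 3, 1 in NHL library 2 and 3 in NHL library 3. No control cDNA fell on it. The 13 full-length and 14 NHL peak positions of Hsc70-4 shared 5 nucleotides, and all lay within 20 nt of a peak of the other bait. For so many peaks within 43 nt such nearness is largely given in advance, and it is a description only. At a false discovery rate below 0.01, 8 of 10 peaks were left in full-length library 3 and 13 of 13 in NHL library 3.

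Hsp60A had 1 cluster, in NHL library 3, at X:11112276-11112284 on the plus strand, 24 to 32 nt before the end. It held 5 of the 27 Hsp60A cDNAs of that library, and the same stretch held 2 of 17 in full-length library 3 and the only control cDNA of the gene. Hsc70-5 had 1 cluster, a single nucleotide with 3 cDNAs in full-length library 3, at 2R:14252665 on the minus strand and 67 nt before the end. No other library had a cDNA there. DnaJ-1, Droj2 and the small heat shock genes had no cluster, and the control had none on any of the 9 genes.

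**Figure D3:**
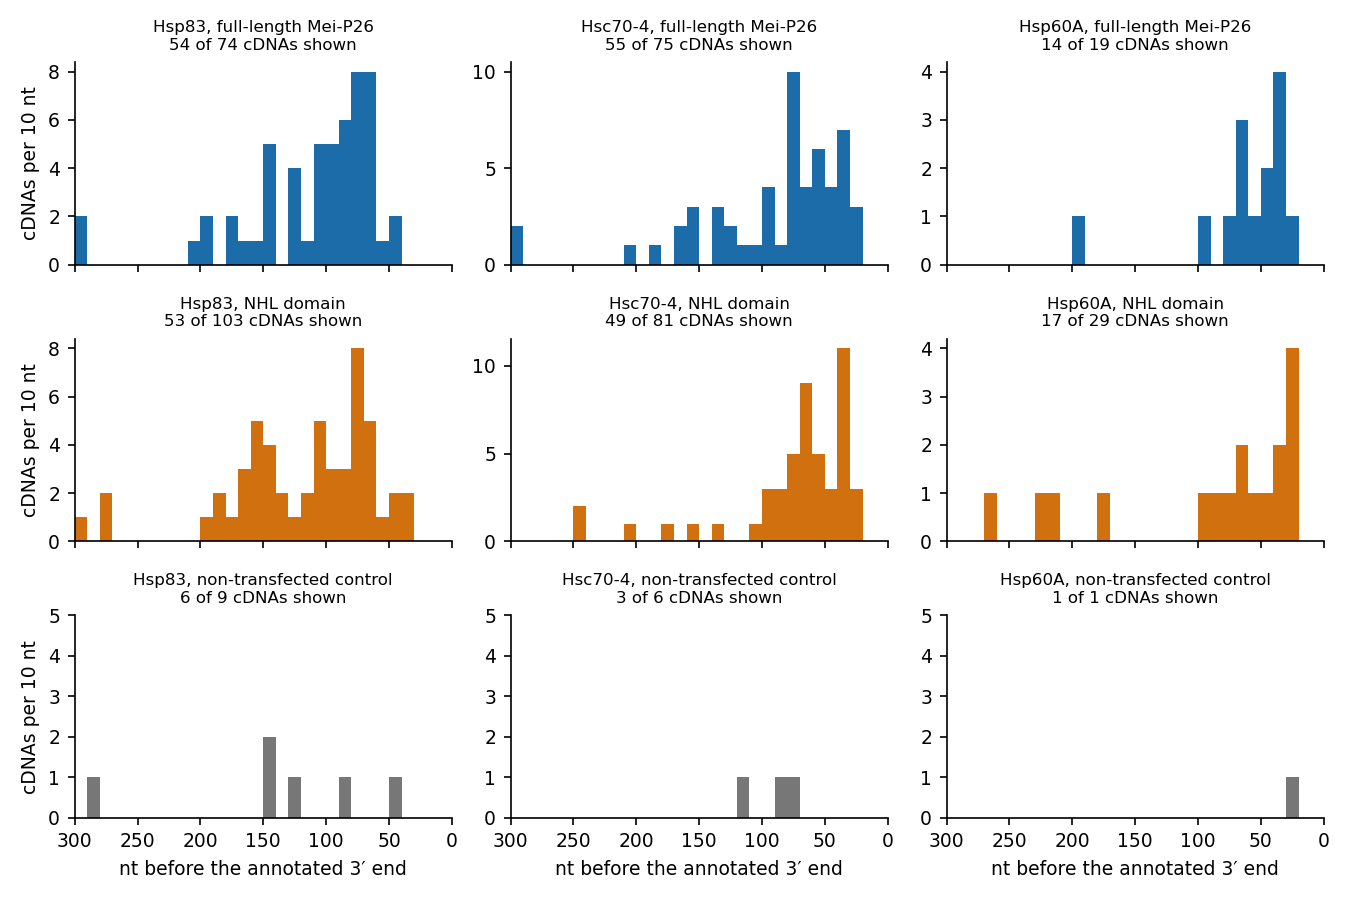
cDNAs per 10 nt (vertical axis, scaled for each panel) over the last 300 nt before the annotated 3′ end (horizontal axis, nt) of Hsp83, Hsc70-4 and Hsp60A, with the 3 libraries of each group summed and the cDNAs shown out of all those of the gene above each panel. Crosslinks of both baits gather within about 150 nt of the end on Hsp83 and nearer to it on Hsc70-4 and Hsp60A. Of the few control cDNAs of Hsp83 and Hsc70-4, some fall in the same range and others lie farther from the end, in part beyond the 300 nt shown.

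All 13 clusters of the baits on these genes lay within 200 nt of the annotated 3′ end, a limit set after they were seen. Of the 2050 bait clusters on protein-coding genes 33.9% did. The 13 lay on only 4 genes, and most lay within the Hsp83 or Hsc70-4 stretch, some overlapping a cluster of another library and some beside a cluster of the same library. They are thus not independent places. Of the 6 genes with at least 10 cDNAs, 3 had a full-length cluster (29.9% of the 1869 genes), 3 an NHL cluster (33.4%) and 2, Hsp83 and Hsc70-4, a cluster with both baits (14.7%). The study had picked Hsp83 for its reporter because peaks of both baits overlapped in these same data, so its place in that count was known beforehand. A control cluster was seen on none of the 6 and on 3.53% of the 1869 genes. Of the 13 clusters, 9 came from the third replicate of a bait, which is its deepest library. The part of library depth and of each gene's own cDNA count in these counts was not tested.

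Recurrent sites, nucleotides with a cDNA in at least 2 of the 3 libraries of a bait, numbered 12 with full-length Mei-P26 and 7 with the NHL domain. Hsp83 had 8 with full-length Mei-P26 and 1 with the NHL domain, Hsc70-4 had 3 and 5, and Hsp60A had 1 and 1. The other 6 genes had none, none was recurrent in all 3 libraries of a bait, and no site was recurrent in the control. At least 1 recurrent site was found on 3 of the 6 genes with each bait, against 19.5% of the 1869 genes with full-length Mei-P26 and 23.5% with the NHL domain. Those 3 genes, Hsp83, Hsc70-4 and Hsp60A, held 186, 162 and 49 cDNAs, while the 1869 genes start at 10. A gene with more cDNAs has more occasions for a recurrent site, and the part of this in the contrast was not tested. Only 3R:15246580 of Hsc70-4 was recurrent with both baits, and 5.89% of the genes had such a site. The 8 full-length sites of Hsp83 lay 63 to 296 nt before the annotated end, and its NHL site lay 327 nt before it. Those of Hsc70-4 lay 34 to 82 nt and those of Hsp60A 35 and 60 nt before it.

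Recurrence moved with single libraries. Leaving out full-length library 3 left 1 of the 12 sites, and leaving out full-length library 1 left 2. Without full-length library 2, 9 were left. Leaving out NHL library 2 or 3 left none of the 7. Allowing 5 nt between libraries gave 20 sites with full-length Mei-P26 and 12 with the NHL domain, among them 1 on Hsc70-5 and 1 on DnaJ-1 with full-length Mei-P26.

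The second comparison set full-length Mei-P26 beside the NHL domain alone in the place of the crosslinks. On Hsp83 the last 150 nt held 10 of 22, 2 of 4 and 33 of 48 cDNAs in the full-length libraries (45.5%, 50% and 68.8%) and 0 of 3, 2 of 16 and 36 of 84 in the NHL libraries (0%, 12.5% and 42.9%). The groups did not overlap, but 2 of the 6 libraries held fewer than 5 cDNAs of the gene, and no test was made because each library would need at least 10. Of 292 protein-coding genes with a cDNA in every bait library and at least 10 in all, 4.11% had all full-length shares above all NHL shares in this window and 1.03% the reverse. In the last 20% of the gene the Hsp83 shares, 72.7%, 75% and 85.4% against 66.7%, 68.8% and 63.1%, did not overlap either, as in 8.9% of the 292 genes, with 2.74% the reverse. The summed shares in the last 150 nt were 60.8% (95% interval 48.8 to 72.0) with full-length Mei-P26 and 36.9% (27.6 to 47.0) with the NHL domain, and the control had 5 of 9. Both intervals cover counting error only and leave out the spread between libraries.

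Hsc70-4 did not separate the baits in this way. Its last 150 nt held 47.4%, 75% and 65.4% of the cDNAs in the full-length libraries and 66.7%, 70% and 51.5% in the NHL libraries, and the summed shares were 61.3% and 54.3%. On Hsc70-5 the window held 8 of 15 cDNAs with full-length Mei-P26 and 2 of 16 with the NHL domain, with intervals of 26.6 to 78.7% and 1.55 to 38.3% that overlap. On Hsp60A it held 13 of 19 and 13 of 29, on DnaJ-1 6 of 17 and 1 of 8, and on Droj2 7 of 11 and 2 of 8. The full-length share was the higher one on each of the 6 genes. Among 503 protein-coding genes with at least 10 cDNAs with each bait, 50.5% had the higher share with full-length Mei-P26, and 4 of those genes are Hsp83, Hsc70-4, Hsc70-5 and Hsp60A. Equal shares, such as 0% with both baits, were counted as not higher. In the last 20% of the gene the full-length share was the higher one on 57.7% of the 503 genes, again with these 4 among them.

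The libraries as wholes differed in the same measure. Of all cDNAs on protein-coding genes, the last 20% of the gene held 49.7% to 60.2% in the full-length libraries, 41.1% to 48.9% in the NHL libraries and 43.6% to 45.7% in the controls. The last 150 nt held 21.4% to 32.4%, 16.6% to 24.1% and 19.2% to 20.8%. The third replicate of each bait had the highest values of its group in both windows, and the part of this in the values of the chaperone genes was not tested.

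**Figure D4:**
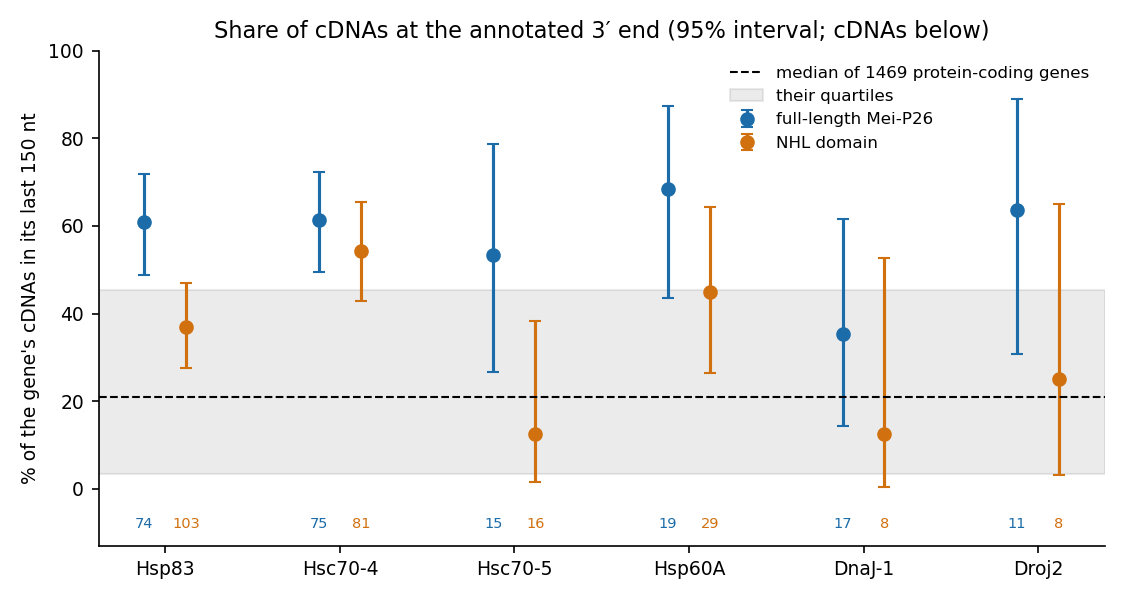
Share of the cDNAs of a gene in its last 150 nt (vertical axis, %) for 6 chaperone genes, with 1 point for each bait, libraries summed, 95% Clopper-Pearson intervals and the number of cDNAs below each point. The dashed line is the median of 1469 protein-coding genes over both baits, 21.1%, and the band runs from their lower to their upper quartile. The full-length point lies above the NHL point on each gene, and the intervals of Hsp83, 48.8 to 72.0% and 27.6 to 47.0%, are the only pair that does not overlap. These intervals cover counting error only and do not measure the spread between libraries.

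The small heat shock genes had too few cDNAs to show a place. Both Hsp26 cDNAs with full-length Mei-P26 fell in the last 20% of the gene and none of the 3 with the NHL domain did. Of 7 bait cDNAs on Hsp23, 4 lay in the last 20%, and neither of those on Hsp27 did. The 5 on Hsp26, the 7 on Hsp23 and the 2 on Hsp27 each fell on a different nucleotide.

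Of the other chaperones and their partners, 67 genes were listed and 61 matched an annotated symbol. Of these, 37 held 571 cDNAs in all, and 19 had at least 10. Hsc70-3, the Hsp70 of the endoplasmic reticulum, led them with 24, 1 and 33 cDNAs in the full-length libraries, 1, 4 and 41 in the NHL libraries and 0, 1 and 1 in the control. CCT2 and CCT1, subunits of the cytosolic chaperonin, held 54 and 32, Gp93, the Hsp90 of the endoplasmic reticulum, held 41, and Hsc70Cb, an Hsp110 family exchange factor, held 38. None of the 67 passed the filter of the edgeR test. Of the 19, 2 had every full-length library above every control, Gp93 and p23, and 3 had every NHL library above every control, CCT4, CCT6 and CG11267, which stand beside 11.9% and 14.4% of the 1869 genes. For each of the 5 the exact permutation p was 0.1, the smallest possible, and no control library had a cDNA of any of them. CG11267 was also lower with full-length Mei-P26 than with the NHL domain in every library, and p23 was higher, 1 of the 19 each way beside 7.38% and 6.37% of the 1869 genes. These names were singled out after their values were seen. Clusters lay on 6 of the 19 with full-length Mei-P26 and on 7 with the NHL domain, on 3 with both, and on 1 in the control, beside 29.9%, 33.4%, 14.7% and 3.53% of the 1869 genes.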

How the data were processed

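The 9 genes and all gene lists were chosen with earlier results of these data known. The authors ran iCount on the fly genome of Ensembl release 98, per the methods, library by library with no pooling of replicates, and PCR duplicates were not counted. The version of iCount is not stated in the sources read here. STAR 2.7.3a is named in the submitters' processing notes. The deposited values are counts of distinct cDNAs per crosslinked nucleotide, not normalized. The score tables of the authors repeat these counts for each gene and add a false discovery rate, which is a p-value after correction, and peaks and clusters were called by the authors in each library. Clusters with flanks were not used.

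Counts were summed per gene and library and divided by all cDNAs of the library (849 to 40032). Coordinates are those of the files, counted from 1. Gene ends came from RefSeq (Release 6 plus ISO1 MT), whose gene intervals held 99.981% of the positions on matched genes. The outermost end was used, and transcript parts, sequences around crosslinks and motifs were not analysed here. No position on the 9 genes lay in several genes, and how reads from near-identical copies of Hsp70 genes were assigned is not stated. Two-sided exact permutation tests compared the rates. edgeR 4.0.16 (quasi-likelihood test, filterByExpr, TMM, 9 libraries, 3 groups, Benjamini-Hochberg adjustment, threshold 0.05) and, as an alternative, DESeq2 1.42.0 were run in R 4.3.3 and tested on simulated data. Places were given as shares with exact 95% intervals in Python 3.11.15 with scipy 1.17.1, which cover counting error only. Named genes were the 9, the other listed chaperones past the edgeR threshold or among the 5 with most cDNAs, and the 3 genes most correlated with each member that passed the filter. Outside this rule, p23, CCT4, CCT6 and CG11267 were named after their values were seen, because their library rates did not overlap between groups. The last 150 nt, the clustered stretches and the limit of 200 nt were chosen after seeing the data.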

Additional observations from a re-analysis of the deposited data

How the results depend on the processing

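No alternative called a chaperone of the set in edgeR or DESeq2, but the fits of the 6 libraries compared alone tested only 8, 28 and 192 genes, with no chaperone of the set among the 8 or the 28. The genes called were 5 for full-length against control, and 3 without TMM, 3 with no filter, 3 with a minimum of 10 cDNAs, 0 with the 6 libraries compared alone and 1 to 8 leaving out a library. For the NHL domain against control, 0 became 15 with no filter, 26 with the minimum of 10, 1 with its 6 libraries and 0 to 13 leaving out a library. Between the baits, 28 became 18 with no filter, 55 with the 6 libraries and 13 to 56 leaving out a library. The replicate block gave 5, 0 and 22 calls, and the numbers were not treated as pairs, since same-numbered deviations correlated at -0.21, -0.08 and 0.29 between the baits.

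The direction of the uncalled Hsp83 log2 fold changes was not stable. Full-length against control went from 0.35 to -0.49 without TMM and ran from -0.11 to 0.85 leaving out a library. NHL against control went from -0.67 to 1.05 with no filter and 1.00 with the minimum of 10, and from -1.12 to 0.11 leaving out a library. Between the baits 1.02 became -0.16 and -0.11 under those filters. The cause was not tested. In mean rate per 10000, full-length minus control for the 9 genes went from 0.42 to -1.01 without mei-P26, Act5C and small RNA genes in the denominator, and from -13.8 to 10.4 leaving out a library. Leaving out a library, full-length minus control ran from -17.8 to 2.18 for Hsp83 and from -1.25 to 4.90 for Hsc70-4, and full-length minus NHL from -1.14 to 5.88 for Hsp83. Of the 18 comparisons of 6 genes, 0 to 5 had groups that did not overlap when a library was left out.

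Recurrent sites went from 12 and 7 to 20 and 12 within 5 nt, to 0 and 0 in all 3 libraries, and to 2 and 1 for peaks within 5 nt. Leaving out a library gave 1 to 9 with full-length Mei-P26 and 0 to 7 with the NHL domain. A false discovery rate below 0.01 left 16 of the 33 full-length peaks, most of those lost being on Hsp83. The share of the 9 genes in the last 20% was 75.9% with full-length Mei-P26, 59.1% in the last 150 nt, and 67.7% to 79.3% leaving out a library. With the NHL domain it was 63.2%, 72% in the last 33.3%, 40.4% in the last 150 nt, and 61.4% to 73.2% leaving out a library. Control depth, 849 to 1252 cDNAs, limits every comparison with the control.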
